A study of Mus musculus with 2 samples.

Results

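TAL1, LMO2 and LDB1 are the core of a transcription factor complex of blood cells, and the 10 genes described here encode that core, the paralogues of its parts and their heterodimer and corepressor partners. They are Tal1, Lyl1, Lmo2, Lmo4, Ldb1, Ldb2, Tcf3, Tcf12, Cbfa2t3 and Cbfa2t2, taken by symbol from the GENCODE M21 annotation of mm10, and all 10 were found among its 21938 protein-coding genes. The study mapped trimethylation of lysine 4 on histone H3 (H3K4me3) by ChIP-seq in MEL, an immortalized mouse erythroleukaemia line that the labels describe as a counterpart of the human line K562. It holds 1 group of 2 libraries, labelled biological replicates 1 and 2, with no genotype, treatment or time to compare, and the labels name the same cell sample for both. The spread between them may therefore be technical.

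The TAL1 protein is a basic helix-loop-helix (bHLH) factor that binds E-box DNA as a heterodimer with an E protein, encoded by Tcf3 or Tcf12. LMO2 bridges this heterodimer to GATA1 and to LDB1, which self-associates and brings distant sites together, and ETO2, the product of Cbfa2t3, brings corepressors to the complex. H3K4me3 lies around the start sites of active and poised genes, mostly just downstream of the transcription start site (TSS). A peak at a start is a readout of that mark and not of transcript level.

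The replicate 1, replicate 2, pooled and replicated lists held 51790, 41508, 41075 and 37387 peaks. The lists give no read counts, so the depth behind a peak is unknown and a start without one may only have had few reads. The signal value of a peak is the authors' own score, and it was compared only within a list. All 5 genes listed as erythroid markers (Gata1, Klf1, Nfe2, Epor and Zfpm1) had a replicated peak at a start, against 50.3% of all protein-coding genes. So did Spi1, which Friend virus insertion activates in erythroleukaemia. The erythroid genes Slc4a1 and Epb42, listed below as targets, had none in the replicated list. Gata1, Klf1, Epor and Zfpm1 also stand in the partner list below. All lists were chosen with earlier results of these data known. Markers of T cells, B cells, granulocytes, hepatocytes and neurons, 2 genes for each, had none.

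Of the 10 complex genes, 9 had a replicated peak within 1000 bp of a TSS, against 50.3% of all protein-coding genes, and Ldb2 was the exception. The same 9 were marked in replicate 1, replicate 2 and the pooled list, against 50.4%, 50.9% and 50.6% of all protein-coding genes. Among genes marked in the replicated list, the strongest TSS peaks of the 9 lay between the 28.7th and 88.2nd percentile of signal value, with a median at the 77.1st. The strongest TSS peak lay at or above the median of all marked genes in 7 of 9, against 50% by definition over all marked genes. In the replicate lists this count was 3 of 9 in replicate 1 and 5 of 9 in replicate 2. The median of the 9 lay at the 40.1st percentile in replicate 1, under the middle of all marked genes, and at the 75.9th in replicate 2, so their place in signal value relative to other marked genes was not stable between the libraries. The marked domain, in which peaks no more than 1000 bp apart are joined, was steadier. The median of the 9 genes was 4631 bp, against 2258 bp over all marked genes, and was 5173 bp in replicate 1 and 4583 bp in replicate 2.

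**Figure D1:**
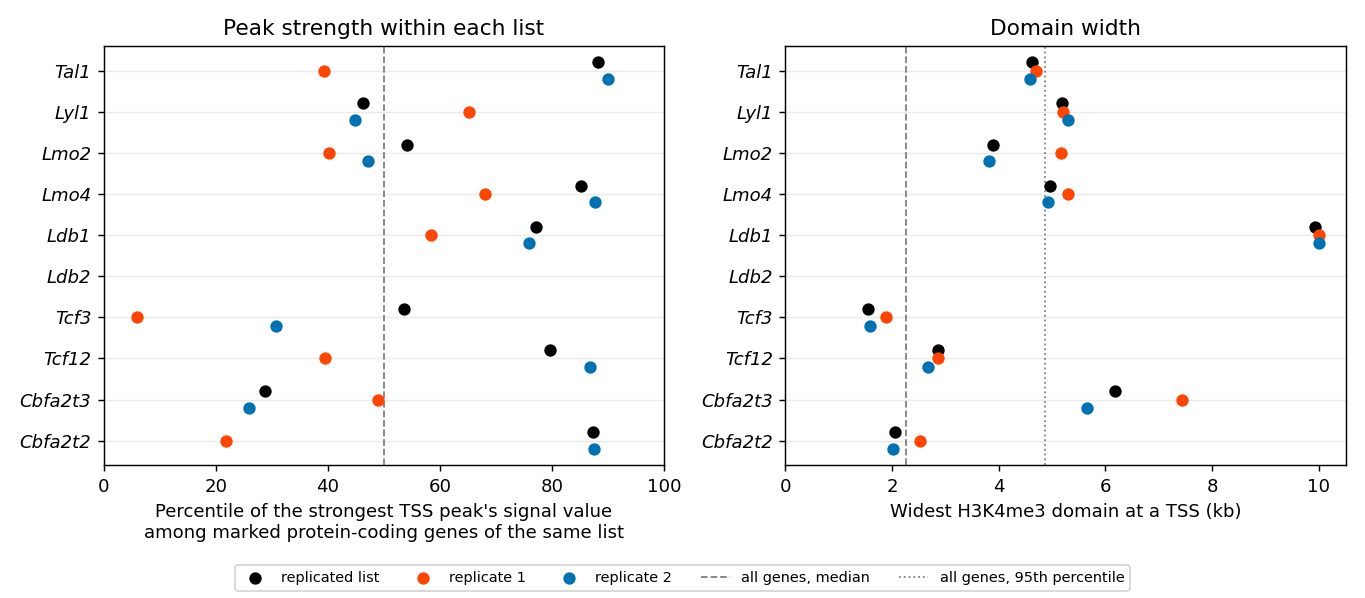
Left, the percentile of each gene's strongest TSS peak among marked protein-coding genes of the same list, with the dashed line at the 50th percentile. Right, the width in kb of the widest H3K4me3 domain at a TSS, with the median (2258 bp, dashed) and the 95th percentile (4864 bp, dotted) of all marked genes of the replicated list. Points are single lists, and Ldb2 has none. Tal1 and Cbfa2t2 sit far apart in the 2 replicates on the left, while widths on the right nearly coincide for most genes.

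Tal1 had the strongest TSS peak of the 10 genes in the replicated list. The peak, chr4:115056763-115060815, covered 4053 bp of the 5′ part of the gene (ENSMUSG00000028717.12, plus strand) and had a signal value of 20.2. Its summit lay in an intron, at -175 bp from the nearest TSS of the gene. The strongest TSS peak had a signal value of 11.0 in replicate 1 and 23.7 in replicate 2. Its percentile was 39.4 in replicate 1 and 89.9 in replicate 2, a mean of 64.6 ± 35.7 (SD, n = 2). Replicate 1 split the region into 3 peaks where replicate 2 had 1 peak of 4583 bp, yet the merged domain was 4689 bp in replicate 1 and 4583 bp in replicate 2. The start region was thus equally wide in both and ranked low in one and high in the other.

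Away from the starts, Tal1 had 5 more replicated peaks, none of them within 1000 bp of a TSS of any annotated gene. The first lay 8333 bp upstream of the first TSS, between Stil and Tal1 (chr4:115047962-115048354, signal value 6.07). A pair lay in an intron, with summits 6173 and 6527 bp downstream and signal values of 4.95 and 8.25. The other two were intergenic, 19421 bp downstream (chr4:115075763-115075991, 3.33) and 39847 bp downstream (chr4:115096061-115097389, 6.89). The farthest of them lies beyond the neighbouring gene Pdzk1ip1. In mouse, the DNA downstream of Tal1 is known to hold a stem cell enhancer and, beyond Pdzk1ip1, an erythroid enhancer of the gene. Whether these peaks coincide with those elements was not tested. All 5 were overlapped by a peak in each replicate list.

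The DNA under the Tal1 marks is shown because TAL1 complexes bind E-box and GATA motifs, and Tal1 is one of their known targets. The promoter is from RefSeq (GRCm38.p6), from 250 bases before to 30 bases after the first start site (chr4:115056176-115056455, plus strand). The windows are the 300 bases around the summits of the upstream peak (chr4:115047943-115048242) and the far downstream peak (chr4:115096123-115096422), read from the plus strand of GRCm38.p6. Capitals mark each match of GATAA or CAGNTG on either strand.
Tal1 first promoter: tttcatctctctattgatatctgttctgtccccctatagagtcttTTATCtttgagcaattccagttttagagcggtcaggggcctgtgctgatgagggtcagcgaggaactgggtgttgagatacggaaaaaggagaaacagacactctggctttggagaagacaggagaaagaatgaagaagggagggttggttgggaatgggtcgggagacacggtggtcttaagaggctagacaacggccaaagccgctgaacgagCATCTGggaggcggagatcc
Tal1 upstream peak: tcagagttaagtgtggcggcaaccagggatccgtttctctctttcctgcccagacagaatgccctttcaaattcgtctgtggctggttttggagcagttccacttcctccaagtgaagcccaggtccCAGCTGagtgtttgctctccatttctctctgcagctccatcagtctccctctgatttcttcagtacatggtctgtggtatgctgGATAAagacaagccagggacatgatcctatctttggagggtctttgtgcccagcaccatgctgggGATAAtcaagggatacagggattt
Tal1 downstream peak: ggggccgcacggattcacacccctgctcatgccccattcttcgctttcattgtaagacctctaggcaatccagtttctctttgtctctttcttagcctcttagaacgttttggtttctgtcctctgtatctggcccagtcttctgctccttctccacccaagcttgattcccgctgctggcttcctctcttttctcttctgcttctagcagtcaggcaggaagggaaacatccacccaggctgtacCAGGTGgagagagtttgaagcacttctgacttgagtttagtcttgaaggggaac
The promoter held 1 GATAA and 1 CAGNTG match. The upstream window held 2 GATAA matches and 1 CAGNTG match, and the downstream window held 1 CAGNTG match and no GATAA. A match is a run of letters and does not show binding.

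Lyl1 encodes the closest bHLH relative of TAL1, which can take its place in early blood progenitors. Its only annotated TSS lay inside a small replicated peak that had no overlapping peak in replicate 1, where the nearest peak was 209 bp away. There was 1 more replicated peak upstream and 1 downstream, and the strongest of the 3, chr8:84701783-84703950, had a signal value of 13.3. That peak had its summit 478 bp downstream of the TSS, in an exon. The signal value was 13.8 in replicate 1 and 14.8 in replicate 2, and the percentile was 65.1 in replicate 1 and 44.9 in replicate 2, a mean of 55.0 ± 14.3 (SD, n = 2). Unlike Tal1, Lyl1 ranked higher in replicate 1. Peaks covered 87.1% of the 3259 bp gene, and the domain ran on past its end to 5191 bp. The gene lies inside Nfix, which is read from the opposite strand, and ChIP-seq peaks carry no strand, so marks within Lyl1 cannot be told apart from marks of Nfix. The last peak of the domain had its summit in an Nfix exon. The Lyl1 promoter (RefSeq, GRCm38.p6, chr8:84701207-84701486, plus strand, 250 bases before to 30 after the start) is shown as a marked promoter poor in CpG, with its 1 CAGNTG match in capitals.
Lyl1 promoter: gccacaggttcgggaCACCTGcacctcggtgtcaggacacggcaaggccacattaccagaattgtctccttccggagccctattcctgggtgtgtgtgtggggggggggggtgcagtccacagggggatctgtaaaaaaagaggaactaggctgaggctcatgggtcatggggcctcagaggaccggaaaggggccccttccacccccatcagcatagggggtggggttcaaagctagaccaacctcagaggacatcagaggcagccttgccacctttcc

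Lmo2, the bridging LIM-only gene, was marked at both of its clusters of start sites, where starts no more than 1000 bp apart form 1 cluster. The internal cluster carried the stronger mark. Its peak, chr2:103968157-103971983, had a signal value of 14.3, and the distal cluster, 11542 bp further 5′, had a peak of 6.29 (chr2:103957901-103960987). The summit of the internal peak also lies within the gene 4931422A03Rik, which has no annotated start within 1000 bp of that peak. At the internal cluster the strongest peak had a signal value of 11.1 in replicate 1 and 15.1 in replicate 2, and at the distal cluster 6.52 and 6.75. The internal cluster was therefore the stronger one in each list. The 2 domains were of like width in the replicated list, 3895 bp at the distal and 3827 bp at the internal cluster. Of the percentiles of the 9 genes, that of Lmo2 moved least between replicates, 40.1 in replicate 1 and 47.2 in replicate 2, a mean of 43.6 ± 5.0 (SD, n = 2). Both lie under its 54.1st percentile in the replicated list. The widest domain was less steady, 5173 bp at the distal cluster in replicate 1 and 3817 bp at the internal cluster in replicate 2. Intergenic peaks lay 12176 bp upstream (chr2:103945229-103945941, signal value 4.85) and 26444 bp upstream (chr2:103931175-103933025, 5.50), and both were overlapped in each replicate list. Lmo2 is known to be read from several promoters and to have enhancers far upstream. The next marked starts downstream were those of Fbxo3 and 4931422A03Rik.

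Lmo4 encodes a LIM-only protein that also binds LDB1 and so competes with LMO2 for it. It had the simplest surroundings of the 9 marked genes. Only 2 replicated peaks lay in the 116691 bp made up of the gene and 50 kb on each side, and both were at its own starts. The larger, chr3:144201431-144205211, had a signal value of 19.3. The signal value was 14.2 in replicate 1 and 22.9 in replicate 2, and the percentile was 68.0 in replicate 1 and 87.7 in replicate 2, a mean of 77.8 ± 14.0 (SD, n = 2), the highest mean of the 9. The domain was 4961 bp wide, with 5305 bp in replicate 1 and 4920 bp in replicate 2.

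Ldb1, which encodes the self-associating adaptor of the complex, had the widest domain of the 10 genes with gaps of up to 1000 bp merged. It spanned 9936 bp (chr19:46036274-46046209) and was wider than those of 99.9% of marked genes. The width was 9996 bp in replicate 1 and 9994 bp in replicate 2. The domain joined 6 peaks and covered both the first start cluster and an internal one 5593 bp downstream. At the first cluster, the peak chr19:46043890-46046209 had a signal value of 17.7, with 13.0 in replicate 1 and 19.7 in replicate 2. This peak also lay at a TSS of Pprc1, which is read in the opposite direction, and the mark cannot be divided between the 2 genes. At the internal cluster, the starts lay inside a peak with a signal value of 10.6, and a stronger one of 13.9 lay just downstream of them. Peaks overlapped both in each replicate list. With gaps of at most 200 bp merged, the domain broke up and its widest piece was 4517 bp, less than the widest domains of Cbfa2t3 (5677 bp), Lmo4 (4961 bp) and Tal1 (4631 bp) under that setting.

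A RefSeq start of Ldb1 that lies within the internal part of the domain, 1070 bp from the nearest GENCODE start cluster, had the most GATAA matches of the 16 promoters found for the complex genes. The promoter is shown for that reason (GRCm38.p6, chr19:46037041-46037320, minus strand, 250 bases before to 30 after the start).
Ldb1 internal promoter: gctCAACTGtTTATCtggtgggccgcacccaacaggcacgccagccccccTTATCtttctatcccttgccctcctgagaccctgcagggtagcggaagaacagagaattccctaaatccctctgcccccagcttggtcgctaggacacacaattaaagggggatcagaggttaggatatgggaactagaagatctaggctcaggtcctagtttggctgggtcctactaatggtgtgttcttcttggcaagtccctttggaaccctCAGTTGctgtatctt
It held 2 GATAA and 2 CAGNTG matches. Both promoters at the GENCODE start clusters of Ldb1 held neither motif.

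Ldb2, the paralogue of Ldb1, had no peak in the replicated, pooled or replicate 1 list anywhere in the 427549 bp of the gene and its flanks. Replicate 2 listed 2 weak peaks in the gene body, chr5:44669163-44669488 with a signal value of 4.33 and chr5:44669666-44669824 with 2.93. The replicated peak nearest to the first start cluster was 272886 bp away. The 1001 bases around the first TSS were low in CpG, with an observed to expected ratio of 0.280, and 16.6% of low-CpG genes had a TSS peak. Words of 32 bases that occur more than once in the genome made up 4.54% of that window, so most of it was unique sequence.

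**Figure D2:**
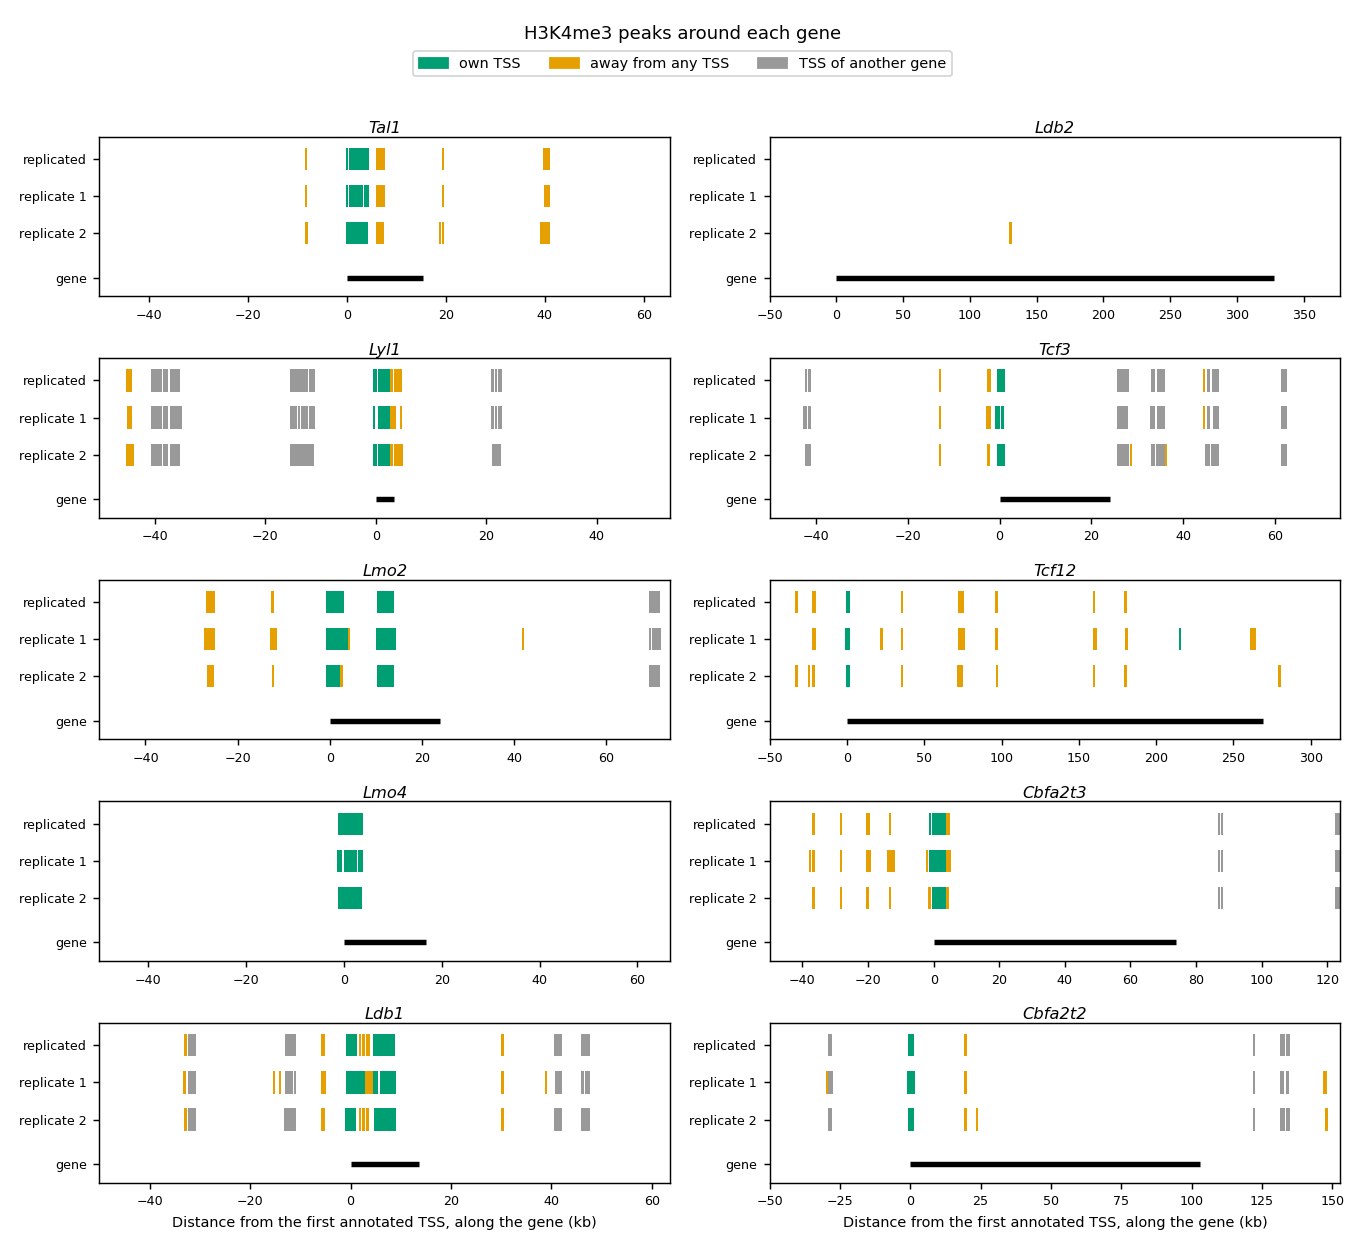
Peaks of the replicated list and of each replicate around the 10 genes, by distance in kb from the first annotated TSS along the direction of the gene (black bar). Green peaks lie within 1000 bp of a TSS of the gene itself, orange ones over 1000 bp from every annotated TSS, and grey ones at a TSS of another gene only. Narrow peaks are drawn at a least width. Lmo4 has its own TSS peaks alone, Tcf12 has 8 replicated peaks along its body, and Ldb2 has none in the replicated list.

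In the replicated list, the E protein genes were marked at the first start cluster only. Tcf3, which encodes the E2A proteins, had its strongest replicated peak at chr10:80432395-80433592, with a signal value of 14.2 and its highest point 438 bp downstream of the nearest TSS. The 8 transcripts of that cluster start in a gap between this peak and a small one upstream, the nearest start being 29 bp from a peak. The signal value was 5.66 in replicate 1 and 12.8 in replicate 2, and the percentile was 5.88 in replicate 1 and 30.8 in replicate 2, a mean of 18.3 ± 17.6 (SD, n = 2). Both lie under the 53.5th percentile that the gene had in the replicated list. The domain of Tcf3 was the narrowest of the 9, at 1554 bp in the replicated list, 1884 bp in replicate 1 and 1592 bp in replicate 2. That place depended on the gap merged. With gaps of up to 3000 bp it was 3955 bp, wider than the domains of Lmo2, Tcf12 and Cbfa2t2, and with gaps of up to 200 bp Cbfa2t2 was narrower, at 1325 bp. Its internal starts had no peak within 1000 bp, and the nearest of them was 1313 bp from one. Around it, 11 of 16 replicated peaks lay at starts of other genes, among them Uqcr11, Mbd3 and Mex3d.

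Tcf12, which encodes the E protein HEB, had 1 TSS peak, chr9:72109816-72112680, with a signal value of 18.1. The signal value was 11.0 in replicate 1 and 22.6 in replicate 2, and the percentile was 39.4 in replicate 1 and 86.8 in replicate 2, a mean of 63.1 ± 33.6 (SD, n = 2). The domain was 2865 bp wide in the replicated list, 2868 bp in replicate 1 and 2673 bp in replicate 2, so here too the width held while the rank did not. Of the 10 genes, Tcf12 had the most peaks in its body away from any TSS. All 8 had their summits in introns, between 35744 and 180858 bp downstream of the first TSS, and the strongest, chr9:72038878-72040298, had a signal value of 10.4. Upstream, chr9:72132350-72133253 had a signal value of 14.5, the highest of the 38 peaks away from starts near the 10 genes in the replicated list. Its overlapping peaks had 8.50 in replicate 1 and 8.38 in replicate 2, and there the intron peak of Tcf12 was stronger, with 11.2 in replicate 1 and 10.01 in replicate 2. The summit of the upstream peak was 20946 bp upstream of the first TSS. The internal starts had no replicated peak, and replicate 1 alone listed a weak one at the fourth cluster (chr9:71896327-71896477, signal value 2.33).

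Cbfa2t3, which encodes the corepressor ETO2, had a weak but wide mark. Its strongest peak, chr8:122695206-122699704, had a signal value of 11.2, the lowest of the 9, and the gene was at the 28.7th percentile. The domain was 6179 bp wide in the replicated list, 7436 bp in replicate 1 and 5657 bp in replicate 2, wider than those of 98.4% of marked genes in the replicated list. The signal value was 12.0 in both replicates, at the 49.0th percentile of replicate 1 and the 25.9th of replicate 2, a mean of 37.4 ± 16.3 (SD, n = 2). The peak also covered the start of Gm10612, an antisense RNA gene, and cannot be divided between the 2.

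The mark sat on the distal start cluster of Cbfa2t3 alone. The internal cluster, 20415 bp downstream, holds starts of 3 protein-coding transcripts, and no list had a peak within 1000 bp of it. Its nearest replicated peak was 15593 bp away, and the distance was 15100 bp in replicate 1 and 16130 bp in replicate 2. The 2 promoters differed in composition. The marked distal one was low in CpG, with an observed to expected ratio of 0.248 over 1001 bases. Around the first start of the unmarked internal cluster, chr8:122678694, the 1001 bases were high in CpG, with a ratio of 0.929. Over all protein-coding genes, 16.6% of low-CpG and 79.8% of high-CpG genes had a TSS peak. These shares class a gene by its first TSS and count a peak at any TSS, so they do not describe internal promoters. Of internal clusters with a protein-coding transcript, of any composition, 17.4% had a replicated peak. None of the 32-base words in the 1001 bases around chr8:122678694 occurs elsewhere in the genome. A RefSeq promoter of each cluster is shown (GRCm38.p6, minus strand, 250 bases before to 30 after the start). The distal one lies at chr8:122699080-122699359 and the internal one at chr8:122678146-122678425, with GATAA and CAGNTG matches in capitals. The internal one belongs to a RefSeq start further into that cluster, chr8:122678175, and the CpG ratio around that start was not computed.
Cbfa2t3 distal promoter: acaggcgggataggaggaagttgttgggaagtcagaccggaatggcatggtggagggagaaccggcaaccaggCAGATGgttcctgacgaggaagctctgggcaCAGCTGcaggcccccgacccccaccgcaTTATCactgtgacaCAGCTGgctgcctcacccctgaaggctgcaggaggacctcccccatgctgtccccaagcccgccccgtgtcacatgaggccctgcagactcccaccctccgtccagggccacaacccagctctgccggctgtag
Cbfa2t3 internal promoter: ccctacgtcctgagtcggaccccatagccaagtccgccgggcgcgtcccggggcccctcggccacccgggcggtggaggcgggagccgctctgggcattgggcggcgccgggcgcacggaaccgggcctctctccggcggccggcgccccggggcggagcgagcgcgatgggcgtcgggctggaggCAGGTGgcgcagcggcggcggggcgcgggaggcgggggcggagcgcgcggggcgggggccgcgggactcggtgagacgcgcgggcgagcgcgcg
The distal promoter held 3 CAGNTG matches and 1 GATAA match, and on the strand opposite to the letters shown a CAGNTG is followed by the GATAA after 9 bases. Such a pair, CAGNTG followed by GATAA within 20 bases, is a loose form of the composite element known for TAL1 and GATA1 binding. It occurred in 0.874% of 32851 RefSeq promoters of 300 bases, and in 1 of the 16 of the complex genes. The internal promoter held 1 CAGNTG match and no GATAA.

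Upstream of Cbfa2t3, 5 replicated peaks away from any TSS lay between 13332 and 36705 bp from the first TSS. The farthest, chr8:122735246-122736260, was the strongest, with a signal value of 8.54, 8.91 in replicate 1 and 9.05 in replicate 2. The other 4 had signal values of 2.87 to 4.30. All 5 were overlapped by a peak in each replicate list.

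Cbfa2t2 encodes MTGR1, a paralogue of ETO2. Its strongest replicated peak, chr2:154436511-154437835, scored a signal value of 19.9, with the summit 118 bp past the nearest TSS. In replicate 1 the strongest TSS peak was another one, upstream of the start, with a signal value of 8.94, and in replicate 2 it was 22.8. The percentile of Cbfa2t2 differed most of the 9 between replicates, with 21.7 in replicate 1 and 87.5 in replicate 2, a mean of 54.6 ± 46.5 (SD, n = 2). The domain was narrow, 2050 bp in the replicated list, 2525 bp in replicate 1 and 2023 bp in replicate 2. Its 4 internal start clusters had no peak in any list, and 1 peak lay in an intron 19575 bp downstream, with a signal value of 5.23. Marked starts nearby included those of Necab3 and E2f1.

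The order of the 9 genes by signal value depended on the replicate. In replicate 2 it ran Tal1, Lmo4, Cbfa2t2, Tcf12, Ldb1, Lmo2, Lyl1, Tcf3, Cbfa2t3. In replicate 1 it ran Lmo4, Lyl1, Ldb1, Cbfa2t3, Lmo2, Tcf12, Tal1, Cbfa2t2, Tcf3. Only Tcf3 was in the last 2 places of both, and only Lmo4 in the first 2. The percentile was higher in replicate 2 for 7 of 9 genes, against 52.6% of 10964 genes marked in both lists. The median size of the difference was 23.1 points, against 17.1 points over those genes. Over all marked genes, 83.7% had more than 1 TSS peak in replicate 1 and 61.1% in replicate 2, so that replicate 1 broke start regions into more peaks. The part of this splitting in the ranks was not tested.

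By domain width the order was nearly the same in both replicates. Ldb1 and Cbfa2t3 came first and Tcf12, Cbfa2t2 and Tcf3 last in each, and the genes between them, Lyl1, Lmo4, Tal1 and Lmo2, changed places. Domains in the widest 5% of marked genes were found for 4 of 9 in the replicated list (Ldb1, Cbfa2t3, Lyl1 and Lmo4), against 5.01% of all marked genes. The count was 2 in replicate 1 and 4 in replicate 2, all with gaps of up to 1000 bp merged. With gaps of up to 200 bp the count was not made, and Ldb1 (4517 bp) and Lyl1 (4438 bp) were narrower. The median of the 9 was then 4438 bp, against 1971 bp over all marked genes. The domains of Ldb1, Cbfa2t3 and Lyl1 hold marks that cannot be divided from those of Pprc1, Gm10612 and Nfix. More than 1 TSS peak was found at 8 of 9, against 67.7%, and in 6 of 9 the strongest of them had its summit downstream of the nearest own TSS, against 68.6%, which is close to the background.

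The annotated starts of the 10 genes formed 33 clusters, of which 15 had a replicated peak. The first cluster was marked in 9 of 10 genes, against 47% of all protein-coding genes, and internal clusters in 6 of 23, against 11% of 26669. Among the 11 internal clusters with a protein-coding transcript, 5 were marked, against 17.4% of 11006 over all genes: 2 of Tal1 and 1 each of Lmo2, Lmo4 and Ldb1. Those of Tal1 and Lmo4 lay at a peak that was also within 1000 bp of the first cluster, so a mark of their own cannot be told apart there. The unmarked ones belonged to Tcf3, Tcf12, Cbfa2t3 and Cbfa2t2. By the 1001 bases around the first TSS, 6 genes were high in CpG and all 6 were marked, against 79.8% of high-CpG genes. Lyl1, Lmo2, Ldb2 and Cbfa2t3 were low in CpG, and 3 of these 4 were marked, against 16.6% of low-CpG genes. The ratio of Lyl1, 0.396, lay just under the cutoff of 0.4.

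Of 92 replicated peaks in the gene bodies and flanks, 20 lay at the genes' own starts, 34 at starts of other genes only and 38 over 1000 bp from every annotated start. These 38 were 18 in gene bodies, 16 upstream and 4 downstream. By summit, 19 lay in introns, 16 between genes and 3 in exons. An annotated read-through gene that spans a whole chromosome stretch was left out of these classes. Both replicate lists overlapped 34 of 38, against 88.5% of 17406 such peaks genome-wide. The median signal value of the 38 was 4.54, against 4.52, and the median width was 536 bp, against 370 bp. A peak of this kind lay in the body of 6 of 10 genes, against 17.5% of protein-coding genes, and in the flanks of 7 of 10, against 50.1%. Gene length, which sets how much sequence is searched, ran between 3259 bp for Lyl1 and 327549 bp for Ldb2, and its part in the body count was not tested.

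**Figure D3:**
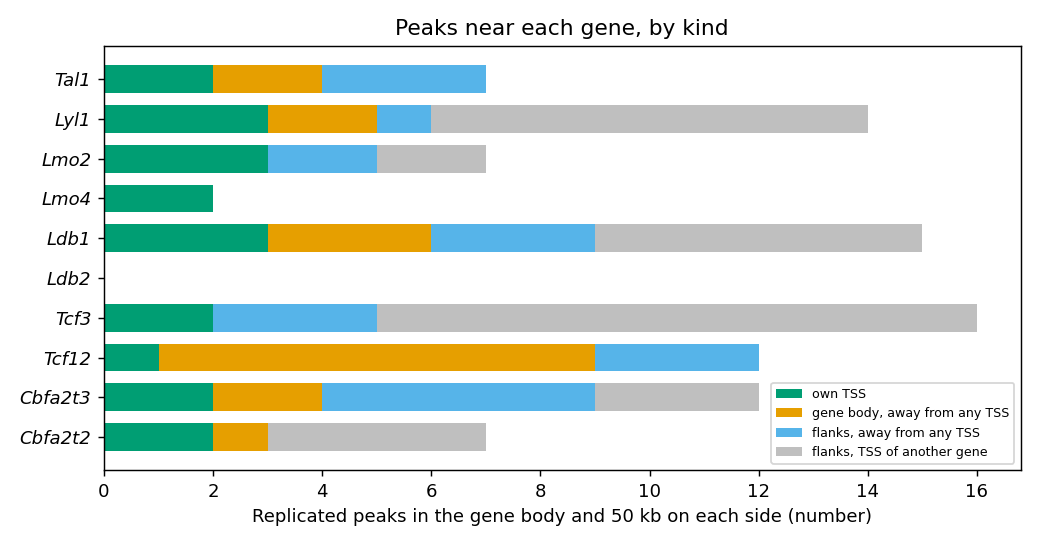
Number of replicated peaks in each gene body and 50 kb on each side, by kind. Bars are counts, with the genes' own TSS peaks in green, peaks away from any TSS in orange (body) and blue (flanks), and peaks at a TSS of another gene in grey. Tcf12 and Cbfa2t3 have the most peaks away from starts, Tcf3 the most at starts of other genes, and Ldb2 no peak.

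In the 300 bases around the summits of the 38 peaks, GATAA occurred in 14, or 36.8%, against 41.7% of 17406 windows genome-wide. CANNTG, the general E-box, occurred in 30, or 78.9%, against 76.9%. CAGNTG, which is contained in CANNTG, occurred in 19, or 50%, against 50.4%. The loose composite pair, CAGNTG followed by GATAA within 20 bases, occurred in none of the 38, against 1.41%. The shares were thus close to those of other peaks away from starts. Among the 16 RefSeq promoters of the 8 genes with an entry, 3 held GATAA, 11 CANNTG and 6 CAGNTG, against 25.4%, 72.3% and 51.4% of all promoters. Lmo2 and Ldb2 had no entry.

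Genes that work with the complex, relatives of its genes and known target genes were described from a list of 49 in 7 groups. A replicated TSS peak was found at 29 of them, or 59.2%, against 50.3% of all protein-coding genes. This mixed list was thus near the background as a whole, and its groups differed. All 6 genes for DNA-binding partners and their cofactor, Zfpm1, were marked. The widest domains were at Gata1 (7953 bp), which recruits the complex to GATA sites, and at the repressor gene Gfi1b (5428 bp). All 4 genes for cofactors and turnover of LDB1 were marked, the widest being Ssbp3 (5561 bp) and Ssbp2 (4676 bp), whose products protect LDB1 from breakdown. All 10 corepressor and coactivator genes were marked, led by Irf2bp2 (10620 bp), a partner of ETO2, and Sin3a (6597 bp). Of the third E protein gene and the 4 ID genes, whose products hold E proteins off DNA, 4 of 5 were marked. With −log10 q of at least 5 the count was 3. The mark of Id3 was weak (signal value 3.62, at the 1.04th percentile). Id1 lay at the 4.19th percentile in the replicated list and at the 59.8th in replicate 1. Id2 (5428 bp) and Tcf4 (3708 bp) were the widest, and Id4 had no peak.

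The relatives of the complex genes that act mainly in other tissues were largely unmarked. Of 14 other LMO and LIM-homeodomain genes, 2 had a replicated TSS peak, Lhx9 with a signal value of 12.6 and Lhx6 with 6.59. Isl2 had 3 TSS peaks in replicate 2 only, the strongest with a signal value of 4.75. None of Tal2, Nhlh1, Nhlh2 and Runx1t1, the further bHLH and ETO relatives, had a TSS peak in any list. Of 6 known erythroid target genes, 3 were marked, a share like the 50.3% of all protein-coding genes, among them Epor (3458 bp), the erythropoietin receptor gene, and Alas2 (796 bp), for the first enzyme of haem synthesis in red cells. Epb42, Kit and Slc4a1 had no replicated TSS peak. Epb42 had weak ones in replicate 1 (signal value 3.07) and replicate 2 (3.28), Kit had one in replicate 1 (3.06), and Slc4a1 had none in either list.

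**Figure D4:**
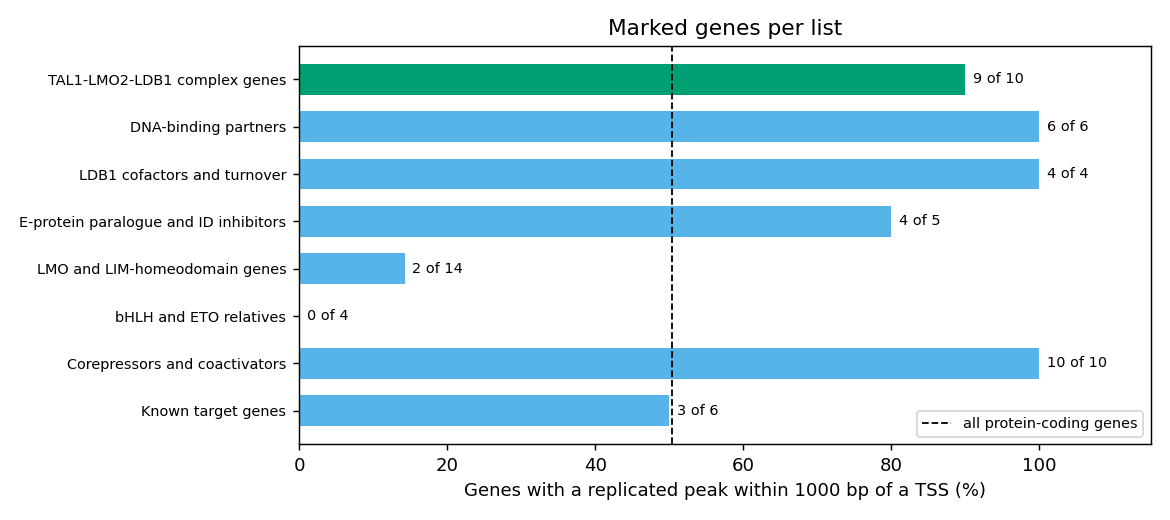
Share of genes with a replicated peak within 1000 bp of a TSS, for the complex genes (green) and the 7 groups of partner, related and target genes (blue). Bars are percent of the genes in each list, labelled with counts, and the dashed line is the share of all protein-coding genes (50.3%). The corepressor list and the list labelled DNA-binding partners, which includes the cofactor gene Zfpm1, are fully marked. The bHLH and ETO relatives have no marked gene.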

How the data were processed

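H3K4me3 ChIP-seq peaks of 2 MEL libraries were analysed. The deposited lists are in narrowPeak format on mm10. According to notes that accompany the samples, a replicate list rests on the alignments of that replicate and a control, the pooled list on those of both replicates, and the replicated list on the 3 others. The authors gave each peak a signal value, a −log10 q-value and a summit position. The definition of the signal value, the peak caller with its settings, and the replication rule were not given in the sources used here. In the labels, a size range of 150 to 350 bp is given.

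Peaks on the autosomes, X and Y were joined to GENCODE M21 starts. A gene was marked where a peak lay within 1000 bp of any TSS, and percentiles are ranks within a list. Every peak ended within its GRCm38 chromosome. A promoter was called high in CpG from an observed to expected ratio of 0.6 with a GC share of 0.5 or more, and low in CpG under a ratio of 0.4. The complex genes and all lists were chosen with earlier results of these data known, so counts are descriptions with no test. Named were all complex genes, the 2 partner genes per group with the widest domain, genes whose call differed from most of their group, and neighbouring genes with a marked start. Pdzk1ip1, Stil, Nfix and Gm10612 were named for position, and Alas2, Tal2, Nhlh1, Nhlh2 and Runx1t1 to complete their groups, after the values were seen. Some genes under these rules are not reported here. A list on mm9 was not used here. The settings varied were the TSS window (500 or 2500 bp), the 5′-most TSS or protein-coding transcripts only, −log10 q of at least 5, the pooled or either replicate list, nearest-gene assignment, gaps and flanks. Start calls were checked on simulated peaks at known distances. Python 3.11.15, numpy 2.4.6, pandas 2.3.3, numba 0.67.0 and matplotlib 3.10.9 were used.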

Additional observations from a re-analysis of the deposited data

How the results depend on the processing

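The count of 9 marked complex genes was the same under all 9 alternatives run for it. It could not rise under any of them, since no list had a peak nearer than 75284 bp to a start cluster of Ldb2. A window of 2500 bp also could not lower it. In a replicate list alone, the median percentile of the marked genes was 40.1 to 75.9, the median domain 4583 to 5173 bp, the peaks away from starts 48 to 61, against 38 in the replicated list, and the marked target genes 4 to 5. The 38 peaks became 26 with −log10 q of at least 5, 27 with flanks of 20 kb, 29 at over 2500 bp from every TSS, 46 in the pooled list and 53 with flanks of 100 kb. The share of all protein-coding genes with a TSS peak was 49.6% with a window of 500 bp, 51.9% with 2500 bp, 46.9% with the 5′-most TSS, 49.3% with protein-coding transcripts, 49.5% with −log10 q of at least 5, 49.8% with nearest-gene assignment, and 50.4% to 50.9% in a replicate list. Marked LMO and LIM-homeodomain genes were 1 with a window of 500 bp and 0 with the 5′-most TSS. With the 5′-most TSS only, Lmo2 fell to the 5.08th percentile, since its stronger peak lies at internal starts. Over single genes, 107 of 135 values moved from the main setting by less than that gene's SD of the 2 replicate lists. This SD rests on n = 2 and reached 46.5 percentile points for Cbfa2t2, so a smaller move does not show stability. The replicate lists that define it were also among the settings. In the replicate 1 list alone, the percentiles of all 9 genes moved by more than their SD. The median percentile of the complex genes lay above the 50th in the replicated list and under it in replicate 1. No paired analysis was possible because the series holds 1 group. Depth is unknown, so a peak found in 1 replicate list only may reflect depth or biology, which cannot be told apart here.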
